A study of Mus musculus with 16 samples.

Results

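Mitochondrial ribosomal proteins are the protein part of the ribosome that works inside mitochondria. Their genes were taken as all genes with a probe named Mrpl or Mrps followed by a number in the array annotation, without Mrpl39, if the probe was well above background on both arrays of at least 1 group. This gave 75 genes of the 17658 tested, each read by its brightest probe, and all 75 names of this form on the array passed. Bone marrow cells of male C57BL/6Jax mice, wild type (WT) or without the microRNA miR-155 (miR-155 KO), were kept in medium with 10 ng/mL M-CSF until day 9, which yields adherent macrophages. They were lysed at once (0 h) or after 6, 12 or 24 h in 100 ng/mL LPS, the bacterial lipopolysaccharide sensed by Toll-like receptor 4. All groups shared the strain, the sex and the M-CSF culture. Total RNA of each of the 8 groups was hybridised to 2 single-colour arrays, 16 in all. The labels do not say whether the 2 arrays of a group came from separate mice or cultures, so p-values measure the spread between these arrays, which may be technical.

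The mitochondrial ribosome is built from RNA encoded by mitochondrial DNA and from proteins that are encoded in the nucleus, made in the cytosol and imported. It translates only the few membrane proteins of the respiratory chain and the ATP synthase that mitochondrial DNA encodes. Names with an l denote proteins of the large subunit, which forms peptide bonds, and names with an s those of the small subunit, which reads the mRNA. By their known place, 48 of the genes encode large subunit proteins, among them Mrps30 and Mrps18a despite their names, and 26 encode small subunit proteins. Mrps36 stood apart, since its product is known as a subunit of the oxoglutarate dehydrogenase complex. By a rule on the numbers in the names, 46 of the genes were taken to have a counterpart in the bacterial ribosome. The rule took 28 as proteins that the mitochondrial ribosome has gained, and it can misplace single genes. In macrophages, LPS shifts energy metabolism from respiration toward glycolysis.

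Levels are given as the log2 of the array signal relative to the 75th percentile of the same array, so that 1 unit is a doubling. All 75 genes were well above background on all 16 arrays, and the mean of 73 of them lay above that percentile. The genes lie on 17 chromosomes, with at most 10 on chromosome 11 and 8 on chromosome 17. A second probe was detected for 34 of them. In 6 of the 34 genes at 6 h, 10 at 12 h and 8 at 24 h another probe had the opposite sign to the brightest, with both called in 0 of them. Of the macrophage markers on the array 7 of 7 were detected, all above the 75th percentile. The erythroid markers Klf1 and Alas2, the T cell marker Cd3d and the B cell markers Cd79a and Pax5 were not detected, but other markers of these and further cell types were. Of the markers on the array, 7 of 8 were detected for neutrophils (2 above the 75th percentile) and 4 of 6 for B cells (1 above it). For T and NK cells 3 of 6 and for erythroid cells 3 of 7 were detected (0 above it). For megakaryocytes 3 of 5 and for endothelial and dendritic cells 4 of 5 each were detected, with 1 above it for each type. For stromal cells 4 of 5, for mast cells and basophils 2 of 5 and for progenitors 2 of 4 were detected (0 above it). Their part in the results was not tested. The array has 0 probes for miR-155 or its host gene, so the genotype labels could not be checked on the targeted gene.

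The first array of every group was scanned in 1 session and the second array in another, and same-numbered arrays deviated together from their group means. The number therefore pairs the arrays. A fit with the session as a term is given beside the fit without it for most counts of the 75 genes and for some single genes. Calls and counts given without mention of the session are from the fit without it, among them most of those of the other gene lists. They can differ with the session in the fit. A gene is called when its p-value, adjusted by the method of Benjamini and Hochberg over all 17658 genes, is below 0.05. Counts under other scalings, or with a single array left out, stand without the share of all genes called in the same setting. Such counts do not tell a shift of these genes apart from a shift of all genes. Changes are log2 differences with the standard error of the fit, averaged over both genotypes (4 arrays a time) unless a genotype is named.

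**Figure D1:**
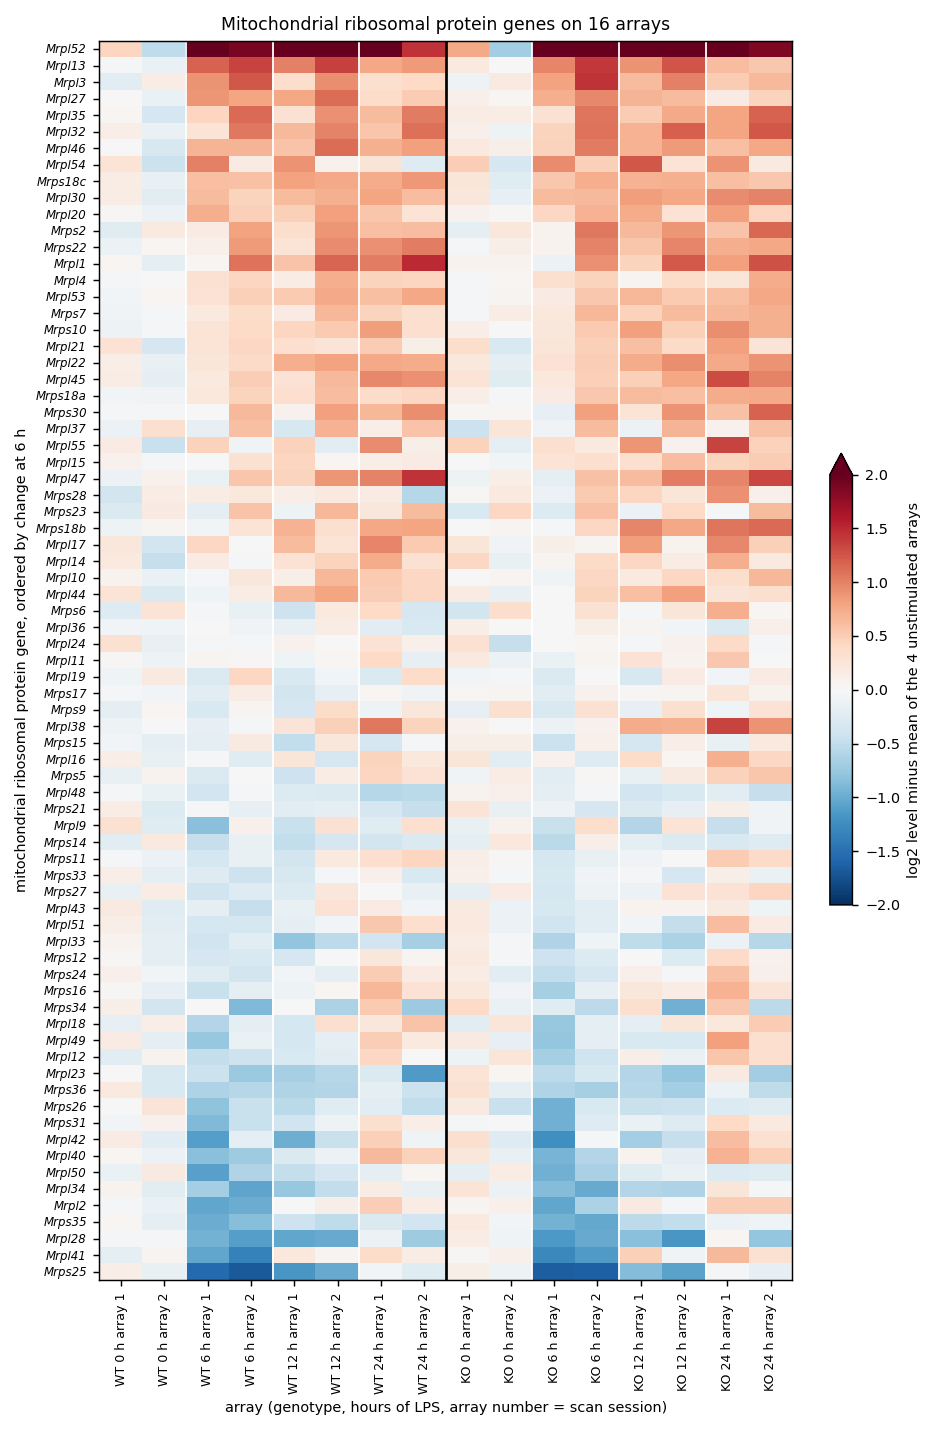
Log2 level of the 75 genes (rows, ordered by their change at 6 h) on the 16 arrays (columns, by genotype, hours of LPS and array number), each minus the mean of the 4 unstimulated arrays. Red is higher and blue lower, and the colour scale ends at 2 in both directions. A block of genes at the top is red and a block at the bottom blue at 6 h in both genotypes, and the blue block is paler or red at 24 h.

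After 6 h of LPS the genes moved in both directions. In RNA of a whole culture, fewer cells of a type and less RNA per cell cannot be told apart. Of the 75 genes 9 rose and 11 fell, 20 together, while 40.7% of all genes tested were called, 19.6% higher and 21.2% lower. The median change was -0.00, against 0.05 over all genes, and 37 of 75 values lay above 0. With the session in the fit 17 rose and 15 fell, against 59.5% of all genes called, 30.1% of all genes higher and 29.4% lower. The share called among these genes was thus below that of all genes in both fits. The median change was -0.15 in the first session and 0.14 in the second. Of the 75 genes 55 had the same sign in both sessions. The 20 called genes all did, but they were called from these same arrays, so their agreement is no separate support. The split between higher and lower depends on the scaling of the arrays. It was 4 and 27 with quantile normalization, which lowers the median of all genes from 0.05 to -0.13 and that of these genes to -0.26. It was 8 and 8 with scaling to the median of detected probes, which raises the median of all genes to 0.17. Without the second unstimulated WT array 13 genes were called.

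Mrpl52, a large subunit protein with no bacterial counterpart, rose most. It lay at 4.99, 4.05, 5.32 and 3.86 on the unstimulated arrays (WT 1 and 2, then KO 1 and 2) and at 7.04, 6.45, 6.86 and 6.74 at 6 h. At 12 h it read 7.27, 6.92, 7.51 and 6.94, and at 24 h 6.69, 5.99, 7.03 and 6.42. The 12 stimulated arrays all lay above the 4 unstimulated ones. The change was 2.22 ± 0.36 at 6 h, or 4.66-fold (adjusted p = 7.2e-04), 2.61 at 12 h and 1.98 at 24 h. It was 1.80 in the first session and 2.65 in the second at 6 h. A second probe of Mrpl52 read 2.52 at 6 h, 1.88 at 12 h and 0.91 at 24 h, all called.

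Mrpl13 and Mrpl3, both counterparts of core proteins of the bacterial large subunit, rose at 6 h. Mrpl13 lay at 3.71, 3.63, 3.95 and 3.74 before LPS and at 4.94, 5.11, 4.74 and 5.17 at 6 h, with no overlap. Its change was 1.23 ± 0.18 at 6 h (2.35-fold, adjusted p = 3.5e-04), 1.13 at 12 h and 0.70 at 24 h (adjusted p = 0.019), and its arrays at 24 h, from 4.30 to 4.61, still lay above those at 0 h. Mrpl3 rose from 3.005, 3.38, 3.14 and 3.42 to 4.14, 4.48, 4.04 and 4.68, a change of 1.096 ± 0.22 (2.14-fold, adjusted p = 0.0026). At 24 h Mrpl3 read 0.46, called only with the session in the fit (adjusted p = 0.17 without it and 0.018 with it). From 6 to 24 h Mrpl13 read -0.53 (adjusted p = 0.052 without the session and 0.014 with it) and Mrpl3 -0.63 (adjusted p = 0.060 and 0.0033). The other 2 probes of Mrpl3 read 1.20 and 1.299 at 6 h, both called.

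Mrpl27, whose bacterial counterpart reaches toward the site of peptide bond formation, rose by 0.84 ± 0.16 at 6 h and 0.80 at 12 h. Its 4 unstimulated arrays lay between 4.18 and 4.41 and those at 6 h between 5.03 and 5.27. Mrpl35 (0.74), Mrpl46 (0.71), Mrps18c (0.61), Mrpl30 (0.59) and Mrpl20 (0.58) complete the genes that rose at 6 h, so 8 of the 9 belong to the large subunit. For Mrpl35 the second session carried most of the rise, with 1.19 against 0.28 in the first. The other 2 probes of Mrpl35, both dimmer, read 0.31 and -0.16 and were not called, and its call at 6 h was lost under quantile normalization (0.31) and under scaling to the median of detected probes (0.86).

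Mrps25, a small subunit protein with no bacterial counterpart that is mutated in a human mitochondrial disease, fell most at 6 h. It lay at 0.71, 0.44, 0.69 and 0.48 before LPS and at -0.98, -1.096, -1.07 and -1.04 at 6 h. At 12 h it read -0.58, -0.43, -0.29 and -0.50, and at 24 h 0.53, 0.34, 0.55 and 0.42. The arrays at 6 and 12 h lay below all unstimulated ones, and those at 24 h overlapped them. It fell by 1.63 ± 0.16 at 6 h, to a level 3.09-fold lower (adjusted p = 2.4e-05), and read -1.03 at 12 h (adjusted p = 6.7e-04) and -0.12 at 24 h (adjusted p = 0.66). A dimmer second probe fell by 1.24 at 6 h and was also called, but read -0.48 at 12 h and was not called there.

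Mrpl41, a large subunit protein also known to bind the apoptosis regulator Bcl2, fell at 6 h and was back sooner. It lay at 3.48, 3.72, 3.69 and 3.75 before LPS, at 2.62, 2.31, 2.37 and 2.53 at 6 h, and at 3.87, 3.71, 4.14 and 3.59 at 12 h. The arrays at 6 h lay below all others, and those at 12 h overlapped the unstimulated ones. It fell by 1.20 ± 0.19 at 6 h (2.30-fold lower, adjusted p = 5.3e-04) and read 0.17 at 12 h and 0.37 at 24 h, neither called. Mrpl2, the counterpart of a protein at the heart of the bacterial large subunit, had a similar course, with a fall of 0.92 ± 0.17 at 6 h and values of 0.07 at 12 h and 0.41 at 24 h. Its arrays lay between 1.79 and 2.02 at 0 h, 0.88 and 1.299 at 6 h, and 2.07 and 2.42 at 24 h. The value at 24 h was called only with the session in the fit (adjusted p = 0.12 without it and 0.044 with it).

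Mrpl28 fell by 1.05 ± 0.22 at 6 h and read -1.01 at 12 h, both called. Its arrays lay between 5.71 and 5.94 at 0 h and between 4.65 and 4.84 at 6 h, and a second probe gave -0.87 at both times. At 24 h the first arrays read 5.67 (WT) and 5.83 (KO) and the second arrays 5.08 and 5.01, so the sessions disagreed on how far it had returned. Mrps35 fell by 0.95 ± 0.15, Mrpl34 by 0.90 ± 0.19, Mrpl50 by 0.82 ± 0.19 and Mrpl40 by 0.77 ± 0.18 at 6 h. A dimmer second probe of Mrpl50 read -0.44 at 6 h and was not called. All 3 probes of Mrpl40 were called at 6 h, with values from -0.79 to -0.68. Mrps31 (-0.64), Mrps26 (-0.63) and Mrps36 (-0.62) complete the genes that fell. The fall of Mrps36 was not called under scaling to the median of detected probes, where it read -0.50. Of the 11 genes that fell, 7 were among the 28 taken to have no bacterial counterpart. This split changed with the session in the fit and with quantile normalization, as given below.

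**Figure D2:**
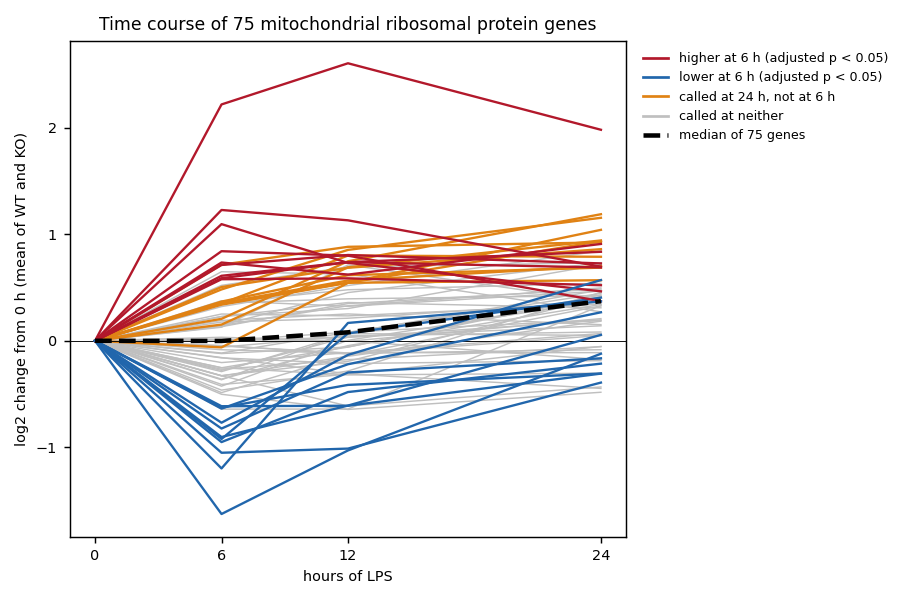
Log2 change from 0 h (vertical axis, mean of WT and KO) against hours of LPS (horizontal axis) for each of the 75 genes. Red and blue lines are the 9 genes called higher and the 11 called lower at 6 h, orange lines those called at 24 h and not at 6 h, grey lines the rest, and the dashed line is the median of the 75. The red lines stay above 0 at every time, and the blue lines end between -0.39 and 0.57 at 24 h.

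After 12 h of LPS 17 genes were higher than at 0 h and 6 lower, 23 in all, against 34.5% of all genes called (16.9% higher and 17.6% lower). The median change was 0.08, against 0.03 over all genes. It was 0.06 in the first session and 0.21 in the second. With the session in the fit the counts were 26 and 7, against 26.6% of all genes higher and 26.7% lower. This split too rests on the scaling, being 7 and 16 with quantile normalization and 18 and 2 with scaling to the median of detected probes. Leaving out the second WT array at 12 h left 11 genes called. Leaving out either unstimulated KO array or the second unstimulated WT array left 15, the first KO array at 12 h 14, and the second KO array at 12 h or the first unstimulated WT array 13.

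The largest rises at 12 h were Mrpl52 (2.61), Mrpl13 (1.13), Mrpl32 (0.88), Mrpl46 (0.81), Mrpl22 (0.80) and Mrpl27 (0.80). Mrpl32 is the protein whose trimming by an inner membrane protease is needed for assembly of the mitochondrial ribosome. Its arrays lay at 1.93, 1.67, 1.90 and 1.69 at 0 h and at 2.45, 2.78, 2.49 and 2.996 at 12 h, with no overlap. Mrpl22, which lines the exit tunnel in its bacterial counterpart, rose from 1.34, 1.04, 1.41 and 0.9994 to 1.93, 2.01, 1.94 and 2.13. Besides Mrps25 and Mrpl28, the genes that fell at 12 h were Mrpl33 (-0.61), Mrps36 (-0.61), Mrpl34 (-0.61) and Mrps35 (-0.48). The latter 4 were not called under scaling to the median of detected probes, where their values ran from -0.47 to -0.34.

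After 24 h of LPS the genes called against 0 h were all higher in the fit without the session. Of the 75 genes 18 rose and 0 fell, against 22.8% of all genes called, 11% higher and 11.8% lower. The median change was 0.37, against -0.03 over all genes, and 59 of 75 values lay above 0. The median was 0.41 in the first session and 0.35 in the second. With the session in the fit 34 rose and 1 fell (Mrpl48, -0.45), against 41.9% of all genes called, 20.4% higher and 21.5% lower. Quantile normalization gave 12 higher and 4 lower, with a median of 0.20, and scaling to the median of detected probes 19 and 0. Without the second unstimulated KO array or the second WT array at 24 h 8 genes were called, without the second unstimulated WT array 9, and without the second KO array at 24 h 11, all of them higher.

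Mrpl52 was again the largest rise. Mrpl47 followed, the counterpart of a bacterial protein near the tunnel exit, with -0.16, 0.05, -0.14 and 0.09 at 0 h and 0.96, 1.40, 0.94 and 1.295 at 24 h. It rose by 1.19 ± 0.25 (2.28-fold, adjusted p = 0.0067), and its second probe gave 0.83, also called. At 6 h Mrpl47 read -0.17 and -0.22 on the first arrays and 0.51 and 0.55 on the second, so the sessions differed there. Mrpl45, which is thought to tether the ribosome to the inner membrane, lay at 2.95, 2.62, 3.06 and 2.55 at 0 h and at 3.75, 3.72, 4.10 and 3.79 at 24 h. It rose by 1.04 ± 0.20 (2.06-fold, adjusted p = 0.0038), and a second probe gave 1.19. For both genes the arrays at 24 h lay above every unstimulated array.

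Mrpl1 rose by 1.16 ± 0.33 at 24 h, from 1.41, 1.18, 1.44 and 1.44 to 2.40, 2.87, 2.18 and 2.65. The other 2 probes of Mrpl1, both dimmer, read 1.04 and 0.29 at 24 h and were not called. Mrps18b rose by 0.94 ± 0.18, from -0.03, 0.12, 0.05 and 0.12 to 0.84, 0.86, 1.14 and 1.19, although a second probe close to background read -0.01. Mrpl38, from 0.49, 0.60, 0.67 and 0.59 to 1.64, 1.03, 1.93 and 1.49, rose by 0.94 ± 0.19, and its second probe by 0.76. The dimmest probe of Mrpl38 read -0.33 ± 0.73 and was not called. None of these genes overlapped between 0 and 24 h on its brightest probe. Genes named for the largest called changes were picked on these same arrays, so a lack of overlap in them is no separate support.

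**Figure D3:**
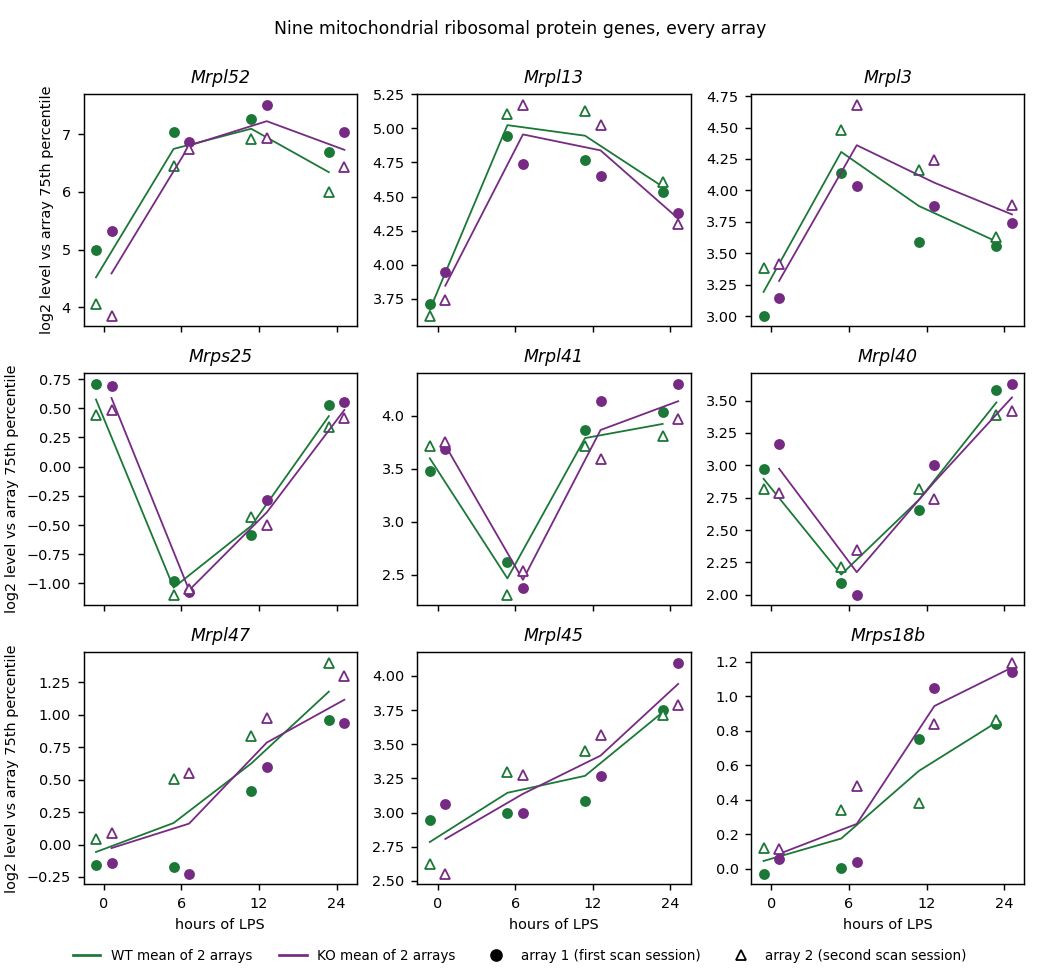
Log2 level relative to the array 75th percentile (vertical axes, scaled for each gene) against hours of LPS (horizontal axes) for 9 of the genes. Green is WT and purple miR-155 KO, circles are first and open triangles second arrays, and lines join the means of 2 arrays. Mrpl52, Mrpl13 and Mrpl3 are highest at 6 or 12 h, Mrps25, Mrpl41 and Mrpl40 are lowest at 6 h, and Mrpl47, Mrpl45 and Mrps18b are highest at 24 h.

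Between 6 and 24 h the called genes all went up in the fit without the session. At 24 h 21 were higher than at 6 h and 0 lower, against 14.1% of all genes higher and 12.9% lower. The median difference was 0.32, against -0.15 over all genes, and 62 of 75 lay above 0. Quantile normalization called 30 higher and 0 lower, and scaling to the median of detected probes 19 and 0. These counts stand without the shares of all genes in the same settings, so they do not show a shift apart from that of all genes. With the session in the fit 30 were higher and 4 lower, the latter being Mrpl3, Mrpl13, Mrpl27 and Mrpl54, against 48.8% of all genes called, 22.4% higher and 26.4% lower. The size differed between sessions, with a median of 0.50 in the first and 0.09 in the second. Without the first KO array at 6 h or the first WT array at 6 h 13 genes were called, and without the first KO array at 24 h 12. All were higher, except that without the first KO array at 6 h 11 were higher and 2 lower, Mrpl3 (-0.79) and Mrpl13 (-0.64). The largest differences were those of Mrpl41 (1.57), Mrps25 (1.51), Mrpl40 (1.34) and Mrpl2 (1.33). The comparisons with 0 h and with 6 h share arrays, so they are not independent of each other.

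Mrpl40 lay at 2.97, 2.82, 3.17 and 2.78 at 0 h, at 2.09, 2.22, 2.001 and 2.35 at 6 h, and at 3.58, 3.39, 3.63 and 3.42 at 24 h. It was thus below its unstimulated level at 6 h and above it at 24 h (0.57 ± 0.18, adjusted p = 0.041), without overlap in either direction. Mrpl12, a stalk protein of the large subunit also known to bind the mitochondrial RNA polymerase, read -0.49 ± 0.18 at 6 h and 0.33 ± 0.18 at 24 h. Neither was called without the session (adjusted p = 0.053 and 0.24), the value at 6 h was called with it (adjusted p = 0.023), and the difference of 0.82 between 24 and 6 h was called in both fits. Its arrays at 6 h, 3.25, 3.30, 3.06 and 3.32, lay below those at 0 h, 3.51, 3.79, 3.62 and 3.96.

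Members of the large and the small subunit were called in both directions at 6 h. Of all genes tested 19.6% were called higher and 21.2% lower at 6 h, and 11% and 11.8% at 24 h. With the session in the fit these shares were 30.1% and 29.4% at 6 h, and 20.4% and 21.5% at 24 h. The counts by class below are to be read beside these shares. Of 48 large subunit genes 8 rose and 6 fell at 6 h, with a median of 0.14, and 14 rose and 0 fell at 24 h, with a median of 0.43. The session term in the fit made these 13 and 9 at 6 h and 25 and 1 at 24 h, and quantile normalization 4 and 15, and 10 and 4. Of 26 small subunit genes 1 rose and 4 fell at 6 h, with a median of -0.14, and 4 rose and 0 fell at 24 h, with a median of 0.20. These counts were 4 and 5, and 9 and 0, with the session, and 0 and 11, and 2 and 0, with quantile normalization. Under quantile normalization the medians at 6 h were -0.18 and -0.40, so the sign for the large subunit rests on the scaling. Of 46 genes taken to have a bacterial counterpart 7 rose and 3 fell at 6 h. Of 28 taken to be without one 2 rose and 7 fell. Adding the session gave counts at 6 h of 12 and 7 with a counterpart and 5 and 7 without one. With quantile normalization they were 2 and 14 and 2 and 12, so most of the called genes of both classes fell. At 24 h 11 of the former and 7 of the latter rose (24 and 10 with the session, where 1 of the latter, Mrpl48, fell). The differences between these classes were not tested.

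The 3 genes for counterparts of bacterial protein S18, whose products occupy different places in the mitochondrial ribosome, were each called higher at 12 and 24 h. Mrps18c rose at 6 h (0.61 ± 0.17), 12 h (0.74) and 24 h (0.69), and its second probe gave 0.77, 0.84 and 0.71. Mrps18b read 0.15 at 6 h and rose at 12 h (0.69) and 24 h (0.94). Mrps18a read 0.34 at 6 h, called only with the session in the fit (adjusted p = 0.044), and rose at 12 h (0.55) and 24 h (0.57). Under quantile normalization Mrps18a was not called at 12 or 24 h, with values of 0.12 and 0.32, nor Mrps18c at any of these times, with values from 0.06 to 0.43.

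Of the other genes chosen for their known roles, Mrpl44, an RNase III relative, rose at 12 h (0.71 ± 0.19) and read 0.13 at 6 h and 0.37 at 24 h, neither called. Mrps30, a large subunit protein first described in apoptosis, read 0.84 ± 0.30 at 24 h and was called with the session (adjusted p = 0.066 without it and 0.0052 with it). Mrps12, the counterpart of the bacterial protein that carries streptomycin resistance mutations, read -0.33 at 6 h and 0.18 at 24 h, neither called. Mrps34 was not called at any time, and its arrays at 24 h differed between sessions, with 4.38 and 4.40 on the first and 3.13 and 3.34 on the second. Mrps6 was not called either and moved in opposite directions in the sessions at 24 h, 0.87 in the first and -0.46 in the second.

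Within each genotype, with 2 arrays a group, fewer genes were called. In WT 11 of 75 were called at 6 h (4 higher and 7 lower), against 25.4% of all genes. There were 7 at 12 h (6 and 1), against 19.3%, and 2 at 24 h (both higher), against 11%. In KO 11 were called at 6 h (4 higher and 7 lower), against 26.0% of all genes. There were 7 at 12 h (5 and 2), against 19.4%, and 5 at 24 h (all higher), against 9.90%. With the session in the fit 21, 19 and 18 were called in WT at 6, 12 and 24 h, against 45.6%, 37.6% and 27.4% of all genes. In KO they were 18, 23 and 18, against 43.7%, 38.3% and 24.1%. The medians were 0.02 in WT and -0.01 in KO at 6 h, 0.09 and 0.12 at 12 h, and 0.35 and 0.41 at 24 h. Mrps25 fell by 1.65 in KO at 6 h and read -1.61 in WT, and Mrpl52 read 2.23 in WT and 2.22 in KO.

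KO and WT macrophages did not differ in any of these genes past the threshold. At 0, 6, 12 and 24 h, averaged over the times, and for the LPS response at each time, limma called 0 of 75 genes, with or without the session in the fit. Among all genes the share called between genotypes averaged over times was 0.0170%, and it was 0.00% at 0, 6 and 24 h and 0.0113% at 12 h. In the fit with the session these shares were 0.0227% averaged over times, 0.00566% at 0 h, 0.0113% at 6 h, 0.0170% at 12 h and 0.00% at 24 h. For the response to LPS they were 0.00% at each time without the session and, with it, 0.00566% at 12 h and 0.00% at 6 and 24 h. At an unadjusted p below 0.05 there were 0 of the 75 genes in the fit without the session, and with it 3 at 24 h and 2 averaged over times. The joint F test of a different response called 0 of 75 genes, against 0.00% of all genes (0.0113% with the session in the fit), and its smallest unadjusted p-values were 0.46 (Mrps21), 0.60 (Mrps28) and 0.64 (Mrpl27).

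The sizes that the fit without the session allows are given by its intervals, taken gene by gene. That fit leaves the deviations shared by same-numbered arrays in its error, and intervals with the session were not computed. The intervals cover the spread between these arrays, which may be technical, and so do not bound a difference between mice. Averaged over times, the KO minus WT differences ran from -0.07 (Mrps18c) to 0.28 (Mrps28), and all 75 intervals of 95% lay within 1 log2 unit of 0, between -0.58 and 0.83. At single times the intervals were wider, with a median width of 0.61 to each side. For the difference in LPS response between genotypes they were wider again, 0.87 to each side at the median. Only 35 of 75 intervals at 6 h, 29 at 12 h and 33 at 24 h lay within 1 log2 unit of 0, and the limits reached -2.06 and 1.99. The widest-ranging single value was that of Mrps28 at 24 h, 0.70, where KO arrays read 3.92 and 3.11 and WT arrays 3.18 and 2.44. KO exceeded WT in both sessions there, and the groups still overlapped, since the second KO array lay below the first WT array.

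Small differences leaned toward KO. Averaged over times 61 of 75 genes were above 0, with a median of 0.07, while the median over all genes was -0.00. The median was 0.08 in each session, and the counts above 0 were 62 and 53 of 75. The cytosolic ribosomal protein genes gave a median of 0.09 (72 of 83 above 0) and the oxidative phosphorylation subunits 0.06 (66 of 82). With quantile normalization 56 of the 75 genes were above 0, with a median of 0.07. Whether the lean comes from genotype or from the samples was not tested.

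**Figure D4:**
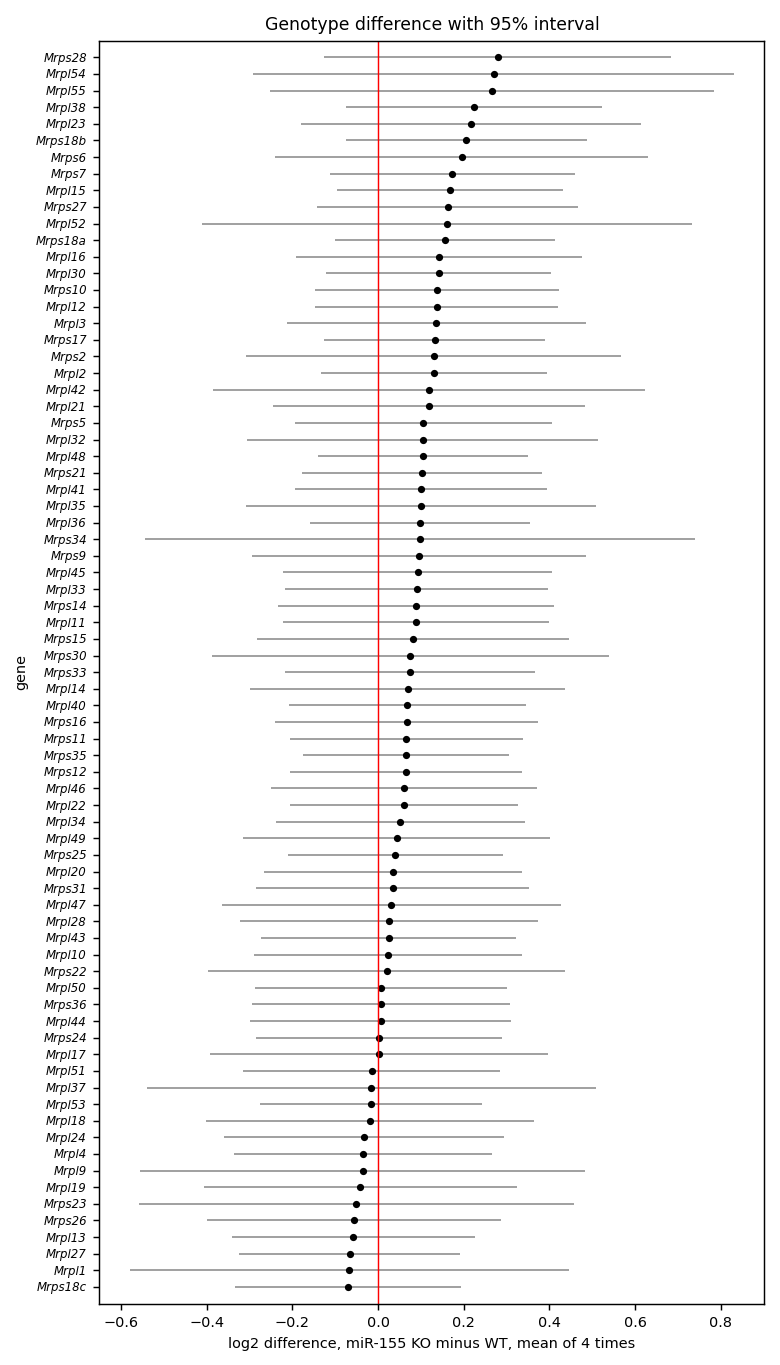
Log2 difference between miR-155 KO and WT averaged over 0, 6, 12 and 24 h (horizontal axis) for each of the 75 genes (vertical axis), with points for the estimate and lines for the 95% interval of the limma fit (n = 8 arrays a genotype). All points lie between -0.07 and 0.28, and the red line marks no difference.

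Mrps6 and Mrpl40 lie on chromosome 16, as does the gene of miR-155. Their KO minus WT differences averaged over times were 0.20 ± 0.20 and 0.07 ± 0.13, neither called.

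Among other genes needed to make and run the mitochondrial ribosome, most of those called at 6 h fell. Of 20 mitochondrial aminoacyl-tRNA synthetase genes and their amidotransferase partners, which charge the tRNAs, 12 fell and 0 rose at 6 h, with a median of -0.79. Gatc read -2.01 ± 0.23 and Nars2 -2.01 ± 0.30, Mars2 -1.99 and Cars2 -1.64. At 24 h 3 rose and 1 fell, with a median of 0.18, and Gatc read 0.18. Of 10 genes of mitochondrial DNA maintenance and transcription 6 fell and 0 rose at 6 h, with a median of -0.95. The largest falls were those of Twnk, the mitochondrial DNA helicase (-2.56 ± 0.16), Polg2, a subunit of the mitochondrial DNA polymerase (-1.89), Polrmt, the mitochondrial RNA polymerase (-1.38), and the transcription factor gene Tfb2m (-1.37). Tfam, which packages mitochondrial DNA, read 0.84 ± 0.82 and was not called. At 24 h Polrmt read 0.02, and Tfb2m was still called lower at -1.18.

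Of 27 genes of ribosome assembly and rRNA modification 10 fell and 2 rose at 6 h, with a median of -0.41. Rbfa, a maturation factor of the small subunit, fell by 2.10 ± 0.15 at 6 h and was still called at 24 h at -0.49, and the methyltransferase genes Mrm2 and Mettl15 read -1.98 and -1.66 at 6 h. The 2 that rose were Mterf3 (0.76) and Eral1 (0.66). Of 15 translation factors and mRNA partners 5 fell and 1 rose at 6 h, with Guf1 at -1.18, the recycling factor Mrrf at -0.91, the release factor Mtrf1 at -0.90, and Slirp, an RNA-binding partner of Lrpprc, at 0.97. Lrpprc (-0.53) and the elongation factor gene Tufm (0.11) were not called. Of 7 mitochondrial ribosomal proteins that have other names on the array, 1 fell at 6 h (Mrpl58, -0.67) and 2 rose at 24 h (Mrpl57, 0.99, and Chchd1, 0.77). Dap3 read -0.24 and Ptcd3 -0.45 at 6 h, neither called.

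Between 6 and 24 h many genes of these lists rose. Of the synthetases 13 of 20 were higher at 24 h, of the assembly genes 14 of 27, of the translation factors 6 of 15 and of the DNA maintenance and transcription genes 5 of 10, and 0 of each were lower. The medians of the differences were 0.97, 0.66, 0.47 and 0.69. The falls at 6 h and the rises from 6 to 24 h kept their direction in the median of each of these 4 lists under quantile normalization and under scaling to the median of detected probes. The lists were set against the ribosomal proteins by their counts and medians alone, with no test of the difference. The counts of these lists are from the fit without the session.

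Genes of the cytosolic ribosome and of oxidative phosphorylation were set beside those of the mitochondrial ribosome, with no test of the difference. Of 83 cytosolic ribosomal protein genes 2 rose and 0 fell at 6 h, and 2 rose and 8 fell at 24 h, with a median of -0.38. With the session in the fit 32 fell at 24 h. The median for the cytosolic ribosome at 24 h was below 0 under quantile normalization as well (-0.57), where the mitochondrial median was 0.20, and under scaling to the median of detected probes (-0.27 and 0.48). Of 82 oxidative phosphorylation subunits 10 rose and 0 fell at 6 h and 6 rose and 1 fell at 24 h, with a median of 0.15. With quantile normalization the counts were 2 and 29 at 6 h and 2 and 5 at 24 h, where the median was -0.14. The medians of both lists at 6 h, 0.12 and 0.15, changed sign under quantile normalization, to -0.58 and -0.54, so no direction is drawn from them, nor from oxidative phosphorylation at 24 h.

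**Figure D5:**
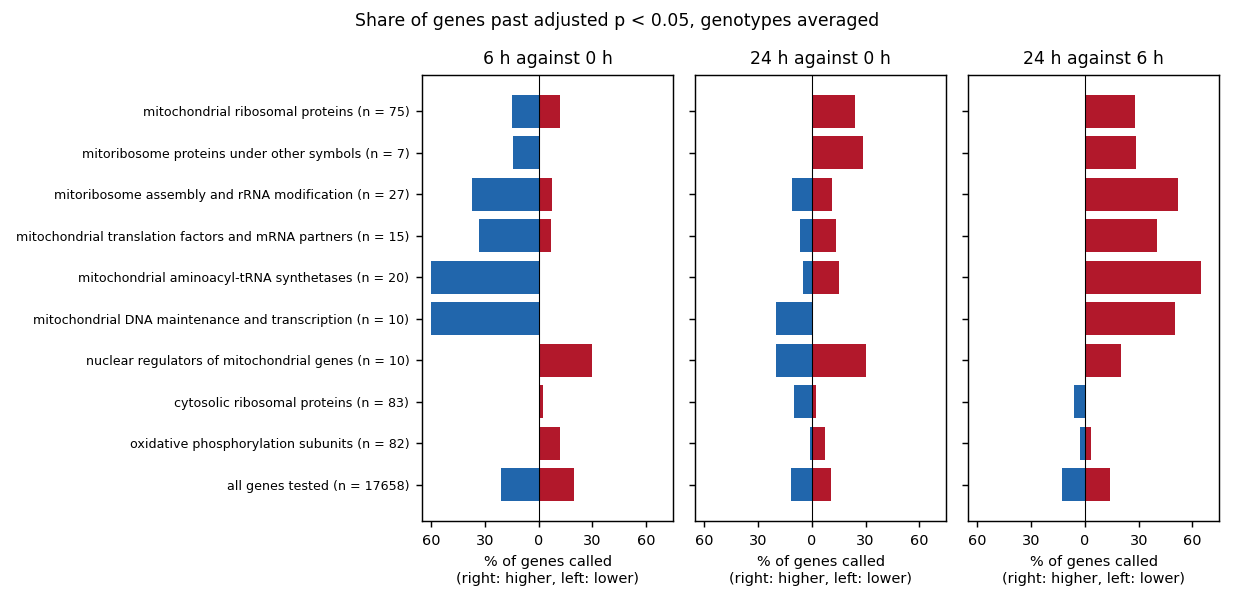
Share of the genes of each list called higher (red, to the right) and lower (blue, to the left) in percent, for 6 h against 0 h, 24 h against 0 h and 24 h against 6 h, genotypes averaged. The lowest bar gives all 17658 genes tested. At 6 h the blue bars of the synthetases (12 of 20) and of DNA maintenance and transcription (6 of 10) are the longest, and from 6 to 24 h the bars of the 6 mitochondrial translation and transcription lists point to the right.

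Among 10 nuclear regulators of mitochondrial genes, 3 rose and 0 fell at 6 h. Ppargc1b, a coactivator of mitochondrial genes, rose by 2.23 ± 0.32 at 6 h and read 1.66 at 24 h, both called. Esrra, the nuclear receptor with which it acts, rose at 6 h (1.09 ± 0.22), 12 h (1.60) and 24 h (1.29), and Gabpb1 rose at 6 h (1.29). Pprc1 read 0.26 at 6 h and rose at 12 h (1.1) and 24 h (0.90). Gabpa, the DNA-binding partner of Gabpb1, fell at 12 h (-0.70) and 24 h (-0.65), and Myc read -2.52 ± 0.81 at 24 h (adjusted p = 0.047). Nrf1 was not called at any time, with 0.37 at 6 h and 0.24 at 24 h.

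The promoters of the mitochondrial ribosomal protein genes were searched for the cores of factors known to drive nuclear genes of mitochondria. Windows from 250 bases before to 50 bases after the transcription start (RefSeq, GRCm38.p6) were found for 66 of the 75 genes, 72 windows in all. On either strand, the NRF1 core GCGCNTGCG was present in 22.2% of the windows, against 11.9% of the windows of all genes tested and 6.31% of all windows in the table. The ETS core CCGGAAG, which the GABP factor also binds, was present in 33.3%, 15.9% and 8.86%. The YY1 core AAGATGGC was present in 16.7%, 4.06% and 2.75%, and the E-box CACGTG in 9.72%, 9.42% and 7.15%. At least 1 of these motifs was found for 43 genes. The exact 95% intervals for the members, which cover counting error only, were 13.3% to 33.6% for NRF1, 22.7% to 45.4% for ETS, 8.92% to 27.3% for YY1 and 4.0% to 19.0% for the E-box. Windows of 1 gene can overlap, and 3 of the 7 windows with an E-box are overlapping windows of Mrpl2. Counted by gene, the E-box was found in 5 of 66 (7.58%), NRF1 in 16, ETS in 24 and YY1 in 12. An NRF1 core can overlap its own reverse complement, so that 2 matches share bases. The median GC content was 58.2% in the members and 59.7% in the genes tested. In the 250 bases before the start alone, the YY1 core was in 5.56% of the members' windows and 1.91% of those of genes tested.

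The windows of 4 genes are given as examples. Each runs 5′ to 3′ on the strand of the gene, with the start at base 251 and the matches in capitals. Mrpl52 (chr14:54426659-54426958, plus strand) rose most and holds the ETS core at 2 places. Mrpl45 (chr11:97315466-97315765, plus strand) rose at 24 h and holds the NRF1 core at 3 places. Mrpl32 (chr13:14612988-14613287, minus strand), which rose at 12 and 24 h, holds NRF1 and YY1 cores, 4 matches in all, of which 2 NRF1 matches overlap. Mrps25 (chr6:92183974-92184273, minus strand), which fell most at 6 h, holds 0 matches.
Mrpl52: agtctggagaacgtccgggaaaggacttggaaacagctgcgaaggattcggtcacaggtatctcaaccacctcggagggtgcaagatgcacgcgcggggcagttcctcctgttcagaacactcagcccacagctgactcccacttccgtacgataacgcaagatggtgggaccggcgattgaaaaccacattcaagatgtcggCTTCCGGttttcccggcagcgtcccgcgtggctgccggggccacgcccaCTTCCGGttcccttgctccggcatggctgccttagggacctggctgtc
Mrpl45: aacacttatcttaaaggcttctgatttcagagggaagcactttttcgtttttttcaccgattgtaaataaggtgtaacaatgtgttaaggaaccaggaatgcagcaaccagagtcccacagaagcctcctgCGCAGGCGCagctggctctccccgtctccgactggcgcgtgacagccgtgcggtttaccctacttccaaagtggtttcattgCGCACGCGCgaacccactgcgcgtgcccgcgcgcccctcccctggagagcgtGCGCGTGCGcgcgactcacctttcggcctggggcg
Mrpl32: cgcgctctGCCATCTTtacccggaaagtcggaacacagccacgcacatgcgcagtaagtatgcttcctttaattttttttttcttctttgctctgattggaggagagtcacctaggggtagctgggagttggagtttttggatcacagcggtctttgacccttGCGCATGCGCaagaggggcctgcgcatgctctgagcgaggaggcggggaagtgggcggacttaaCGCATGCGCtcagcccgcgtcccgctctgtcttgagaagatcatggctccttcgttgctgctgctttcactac
Mrps25: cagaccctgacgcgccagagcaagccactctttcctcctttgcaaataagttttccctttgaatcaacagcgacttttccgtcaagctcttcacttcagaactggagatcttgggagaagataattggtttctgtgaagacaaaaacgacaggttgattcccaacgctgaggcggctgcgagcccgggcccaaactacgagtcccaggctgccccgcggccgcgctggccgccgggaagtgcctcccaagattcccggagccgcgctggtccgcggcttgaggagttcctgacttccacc
Other genes differed from these examples. Mrpl47, Mrpl1 and Mrpl46, which rose, hold 0 matches, as do Mrpl28 and Mrpl41, which fell at 6 h. Mrps26, which also fell at 6 h, holds 3. Whether matches go with the response was not tested. A match is only a run of letters, and binding was not measured.

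Mrpl46 and Mrps11 lie head to head on chromosome 7, and their windows overlap by 141 bases (chr7:78783040-78783180, GRCm38.p6). Mrpl46 rose at 6 h (0.71 ± 0.20), 12 h (0.81) and 24 h (0.73). Mrps11 read -0.25 ± 0.17, -0.06 and 0.42, and its value at 24 h was called with the session in the fit (adjusted p = 0.12 without it and 0.039 with it). At 6 h Mrpl46 read 0.47 in the first and 0.96 in the second session, and Mrps11 -0.40 and -0.10. The difference between the neighbours was not tested.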

How the data were processed

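The single-colour Agilent arrays were read with Agilent Feature Extraction 10.5.1.1, per the file headers, and the deposited intensity is the software's processed signal, already background-subtracted and detrended. The deposited series table holds log2 values of the same arrays. Here the log2 of the processed signal was taken, spots of 1 probe were averaged without 1639 control spots and outlier spots, and the 75th percentile of the array was subtracted. Genes needed a probe well above background on both arrays of a group. The brightest probe stood for a gene. A model of 8 group means (limma 3.58.1, R 4.3.3) gave p-values, which were adjusted over 17658 genes at 0.05. Deviations of same-numbered arrays correlated in all 28 pairs of groups (0.40 to 0.84), and the headers place each number in 1 scan session, so a fit with the session was run (7 instead of 8 residual degrees of freedom). The fit was tested on simulated data with noise drawn independently for each array. Those data lacked the shared deviations of same-numbered arrays, so the simulation does not bear on the effect of the session. Members, lists, motifs and the rule for named genes (the 6 largest called changes each way at each time, the 3 largest within a genotype, and members of known role) were chosen with earlier results of these data known. The difference of Mrpl46 and Mrps11 and the second probes were picked out after their values were seen. Probe positions in the files are on mm9. Promoter windows are those of a RefSeq table on GRCm38.p6, and no genome sequence or alignment was used beyond it.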

Additional observations from a re-analysis of the deposited data

How the results depend on the processing

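The directions of 64 named gene changes were recomputed under each alternative. They kept their sign under every one except normexp background correction with the local background as measured, and 47 kept their call under quantile normalization, 54 under scaling to the median of detected probes, 64 with the deposited series table, 49 with no filter on dim probes, 47 with the mean of all probes of a gene, 64 with the replicate block (scan session) and 63 with the slide as a term. A version of normexp with the local background capped at a high percentile, chosen after seeing the data because single spots had a local background near the scanner's limit, kept 58. Uncapped normexp called 1 member at 6 h and 1 at 12 h with genotypes averaged, and 0 at 24 h, for 24 against 6 h and in each genotype and time. Under it 10 values at 12 h changed sign, with genotypes averaged for Mrpl13 (-0.43), Mrpl32 (-0.25), Mrpl46 (-0.21), Mrpl27 (-0.74), Mrpl44 (-0.45), Mrps18a (-0.96) and Mrps18c (-0.89), in WT for Mrpl13 (-0.24) and Mrpl27 (-0.52), and in KO for Mrpl13 (-0.62). The replicate block called 32 members at 6 h, 35 at 24 h and 34 for 24 against 6 h with genotypes averaged, 21, 19 and 18 in WT and 18, 23 and 18 in KO at 6, 12 and 24 h. The slide as a term called 31 at 6 h with genotypes averaged, 21 and 13 in WT and 19 and 11 in KO at 6 and 24 h. Quantile normalization called 31 at 6 h with genotypes averaged and 20 in each genotype. Scaling to the median called 6 in WT at 6 h. With no filter on dim probes 14 were called at 12 h with genotypes averaged, 4 and 0 in WT and 3 and 2 in KO at 12 and 24 h. In WT at 24 h 5 were called with the filter on all arrays and 4 with the mean of all probes. Leaving out each array in turn called 13 to 19 members at 6 h, 11 to 23 at 12 h, 8 to 19 at 24 h and 12 to 20 for 24 against 6 h. In WT it called 3 to 10, 2 to 7 and 0 to 1, and in KO 4 to 11, 1 to 5 and 0 to 5, at 6, 12 and 24 h. In WT at 24 h every single array left out, KO arrays included, left 0 or 1. KO against WT called 0 members under every alternative run. The share of promoter windows with the YY1 core was 5.56% in the bases before the start alone. Where a count moved, the cause was not tested. With 2 arrays a group, the number of arrays limits the precision.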
